A study of Mus musculus with 26 samples.

Results

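The entries examined here were mmu-mir-144, mmu-mir-451a, mmu-mir-486a and mmu-mir-486b, miRNAs best known from red blood cells. They were taken by name from the miRBase entries of the table, which gave 4 members of 1054 miRNA entries. All 4 passed the filter on low counts, as did 463 miRNA entries in all. The study sequenced small RNA from the dorsal (dHC) and ventral hippocampus (vHC) of male C57BL/6J mice aged 2 to 3 months, with both hemispheres taken. Control mice stayed in the homecage and received no treatment (time 0), and swim mice were placed for 6 min in water of 18 °C and collected 45 min after the swim began. There were 26 libraries, 8 of control vHC and 6 each of swim vHC, control dHC and swim dHC. The 26 libraries were spread over 3 dated blocks, here numbered 1, 2 and 3 in date order, and each block held at least 2 libraries of every group. The labels do not say whether the libraries came from separate mice, or whether a dorsal and a ventral library came from one mouse, so p-values measure the spread between these libraries only. Each dorsal library is numbered directly after a ventral one of the same condition and block, so they may be pairs from one mouse. No test here used such a pairing, and all tests treated the libraries as separate. No perfusion step is described for these hippocampi, so blood in the vessels at dissection may be part of each sample.

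Red cell precursors make mir-144 and mir-451a from one primary transcript under the control of the erythroid factor Gata1. The precursor of mir-451a is too short for Dicer and is cut by Ago2 instead, and mature red cells, which lack a nucleus, keep large amounts of miR-451a. For that reason miR-451a is widely used as a sign of blood in tissue and plasma samples. The mir-486 hairpin lies inside Ank1, the gene of ankyrin R of the red cell skeleton, and is made in red cell precursors and in striated muscle. The comparisons below ask whether mir-486 moves with mir-451a or differs between regions by itself.

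The mature sequences of mir-144 and mir-451a from RefSeq (GRCm38.p6) are shown because their seeds, bases 2 to 8 in capitals, set which mRNAs they pair with. mir-144 yields a product from each arm of its hairpin, and mir-451a yields a single product. None of these 3 products shares a seed with another.
mmu-miR-144-5p: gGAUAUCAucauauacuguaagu
mmu-miR-144-3p: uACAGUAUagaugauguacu
mmu-miR-451a: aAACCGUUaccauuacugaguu

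The mir-451a hairpin is shown whole, with the mature miRNA in capitals, because the mature miRNA starts in the first arm and ends in the loop. Its bases 2 to 17 are the reverse complement of 16 bases of the opposite arm.
Mir451a hairpin: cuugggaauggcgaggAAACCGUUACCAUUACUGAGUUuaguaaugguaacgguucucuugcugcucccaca

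On GRCm38 the Mir144 hairpin lies at chr11:78073005-78073070 and the Mir451a hairpin at chr11:78073170-78073241, both on the plus strand and 99 bases apart. In the GENCODE vM21 annotation Mir144 overlaps no other gene, and Mir451a overlaps Mir451b, which covers the same 72 bases on the minus strand. The entry mmu-mir-451b was nearly empty, with 27.5 counts over the 26 libraries, at most 4 in a library, and 0 in 6 libraries. The longest run of the mature miR-451a that also occurs in the Mir451b hairpin is 16 bases (bases 2 to 17 of miR-451a). Mir486 lies at chr8:23142555-23142682 on the plus strand within an intron of Ank1, which is on the same strand. RefSeq gives mir-486b as a synonym of Mir3107, whose 90 bases at chr8:23142573-23142662 on the minus strand lie wholly within Mir486. Mir486 and Mir3107 also lie in an intron of the antisense gene Gm15816.

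The entries mir-486a and mir-486b held nearly the same counts, mir-486b being 92.6% to 101% of mir-486a in each library. How reads were divided between them is not stated, so they were treated as one repeated measurement, and their sum is called mir-486. Levels below are counts per 1000000 miRNA counts after TMM scaling (CPM), and a read covers a whole mature miRNA, so no length enters. Total miRNA counts ran from 465387 to 4819724 per library. The shallowest was control dHC library 24 (block 2), which held 19 counts of mir-144, 128.5 of mir-451a and 58 of mir-486a.

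Across all libraries mir-451a was the steadiest of the 4 entries and mir-144 the most variable. The mean level of mir-451a was 409 CPM, the 175th highest of 463 entries, and its highest library stood 1.89-fold above its lowest. mir-486a averaged 157 CPM (rank 224) with a 3.60-fold range, and mir-144 averaged 94.9 CPM (rank 248) with a 5.20-fold range. The median entry averaged 130.3 CPM, so the 4 miRNAs were middling members of the hippocampal pool. Together they made up 0.0566% to 0.105% of the miRNA counts of a library.

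A list of miRNAs of hippocampal neurons (mir-124, mir-9, mir-128, mir-132 and mir-138) was read beside the tissue label. It does not test the label, since there was no other tissue to compare with. The 11 entries of that list summed to between 165692 and 339840 CPM in every library, and mir-9-2, its most abundant entry, averaged 39496 CPM. None of the 11 was called between regions, where 22.5% of all entries were called in control mice and 20.3% after swim.

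**Figure D1:**
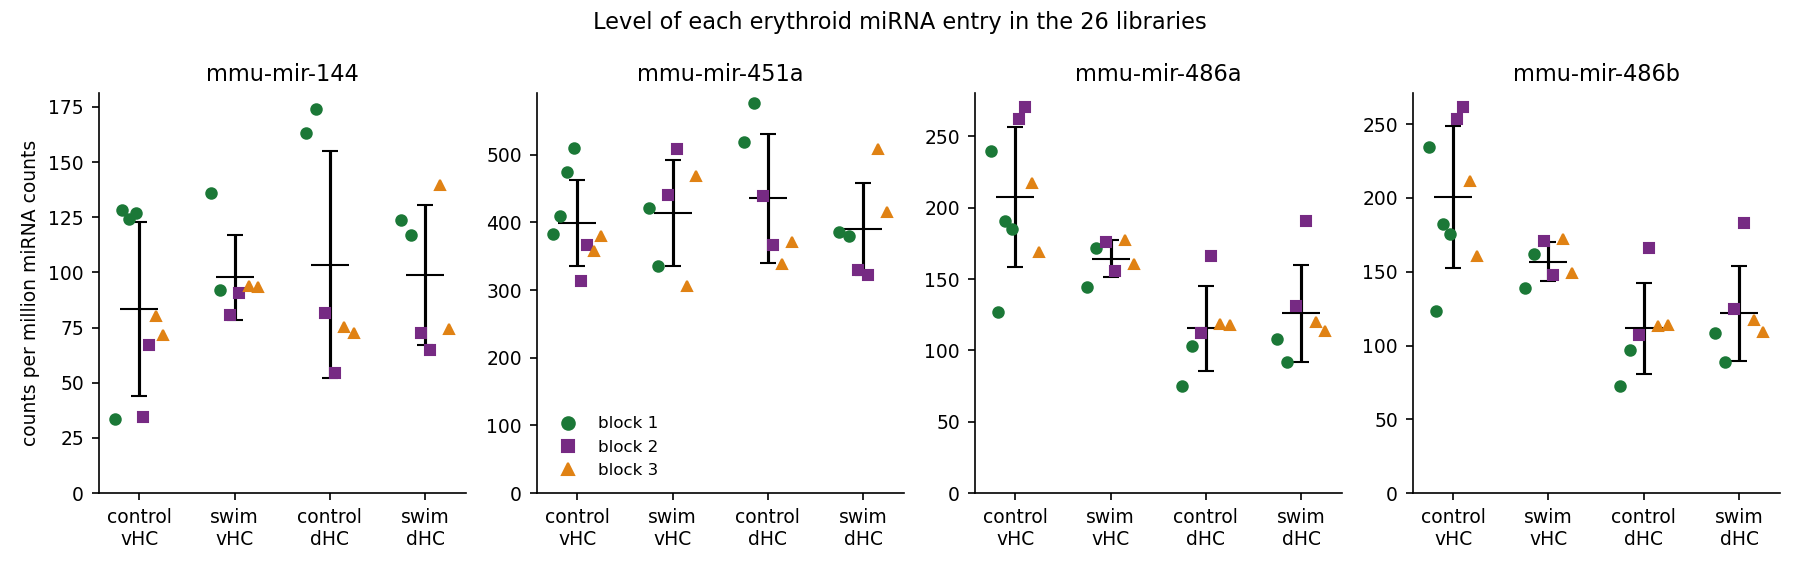
Level of each entry (vertical axis, counts per 1000000 miRNA counts, CPM) in the 26 libraries by group, with points marked by block and black bars for the group mean ± SD. mir-451a has nearly the same mean in all 4 groups (390 to 435 CPM), mir-144 scatters by block, and both mir-486 entries are highest in control vHC and lowest in control dHC.

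The first question was whether the 4 miRNAs differed between dHC and vHC in control mice. Both mir-486 entries were 1.90-fold lower in dHC, while mir-451a and mir-144 showed no difference that passed the test. In control vHC the level of mir-486a ran from 127 through a median of 204 to 270.3 CPM (mean 208 ± 49.1, SD, n = 8). In control dHC it ran from 75.0 through 115 to 166 CPM (mean 115 ± 29.7, SD, n = 6). The groups overlapped through a single dorsal library, the shallow library 24 at 166 CPM, and the next highest dorsal library stood at 118 CPM, below the lowest ventral one. Over all blocks 5.62% of entries had control regions wholly apart and lower in dHC, with none of the 4 members among them.

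In a fit over all 463 entries with block as a covariate (edgeR quasi-likelihood test, Benjamini-Hochberg adjustment), the log2 fold change of mir-486a was -0.92 (SE 0.14, 95% confidence interval -1.21 to -0.63, adjusted p = 2.06e-05). That of mir-486b was -0.92 (SE 0.14, adjusted p = 2.28e-05). Of all entries tested, 22.5% were called in this comparison and 14.7% were called lower in dHC, so a regional difference was not rare among hippocampal miRNAs. The 2 calls are one measurement, as above. In bulk tissue a lower level can come from fewer cells that make the miRNA or from less of it per cell, and these cannot be told apart.

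The mir-486 difference was seen in each block on its own. On the log2 CPM scale dHC was lower than vHC by differences of -1.04 in block 1, -0.96 in block 2 and -0.70 in block 3. Within every block each dorsal control library was below each ventral one for mir-486a and mir-486b, a pattern met by 10.4% of all entries in that direction. Without library 24 the control regions stood apart over all blocks too, as did 6.48% of entries in that direction.

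mir-451a, the red cell miRNA, was not called. Its level in control vHC ran from 314 through 381 to 510 CPM (mean 399 ± 64.0, SD, n = 8), and in control dHC from 339 through 406 to 577 CPM (mean 435 ± 94.8, SD, n = 6). The 2 highest libraries were dorsal ones of block 1, and the remaining 4 dorsal libraries lay within the ventral range. The fitted log2 fold change was 0.15 (95% confidence interval -0.13 to 0.44, adjusted p = 0.419). In this fit, which has block as a covariate, the interval excludes a fall as large as that of mir-486. With surrogate variables in place of block mir-451a fell more than mir-486a, as given under the dependence on processing. Within blocks the differences of mir-451a were 0.31, 0.25 and -0.05.

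mir-144, which shares its primary transcript with mir-451a, was spread too widely for a regional call. Control vHC libraries ran from 33.5 through 76.0 to 128 CPM (mean 83.4 ± 39.5, SD, n = 8) and control dHC libraries from 54.5 through 78.4 to 174 CPM (mean 104 ± 51.4, SD, n = 6). The groups overlapped over most of their range. Its log2 fold change was 0.40 (95% confidence interval -0.07 to 0.87, adjusted p = 0.190), and within blocks it was 0.89, 0.47 and -0.04.

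After the swim the regional difference of mir-486 had the same direction but was smaller. Of its entries only mir-486a was called, and weakly, and with both entries summed there was no call. In swim vHC mir-486a ran from 145 through 166 to 177 CPM (mean 164 ± 13.01, SD, n = 6), the smallest SD of the 4 groups. In swim dHC it ran from 92.1 through 117 to 191 CPM (mean 126 ± 34.2, SD, n = 6). A single dorsal library, library 22 of block 2 at 191 CPM, stood above all 6 ventral ones, and the other 5 dorsal libraries were below all 6. Of all entries 4.75% had swim regions wholly apart and lower in dHC, with none of the 4 members among them. mir-486a was thus highest in control vHC, then swim vHC, swim dHC and control dHC, and the differences between neighbours of one region in that order did not pass the test, as given below.

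The fitted log2 fold change of mir-486a after swim was -0.42 (SE 0.15, 95% confidence interval -0.73 to -0.11, adjusted p = 0.0472) and that of mir-486b was -0.40 (SE 0.15, adjusted p = 0.0651). In this comparison 20.3% of all entries were called and 12.7% were called lower in dHC. The call of mir-486a held in 7 of the 26 fits that each left out 1 library, with adjusted p between 0.0134 and 0.126. Those 7 left out control vHC libraries 1, 7 or 31, swim vHC libraries 19 or 21, control dHC library 18 or swim dHC library 22. Within blocks the differences were -0.66, -0.06 and -0.53, so block 2, which held library 22, showed almost none.

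For mir-451a the swim regions were close, with vHC from 305 through 431 to 508 CPM (mean 413 ± 78.3, SD, n = 6) and dHC from 322 through 383 to 508 CPM (mean 390.2 ± 67.7, SD, n = 6). The log2 fold change was -0.09 (95% confidence interval -0.39 to 0.21, adjusted p = 0.741), and the regions overlapped almost wholly. With surrogate variables in place of block it was -0.95 (adjusted p = 0.0348, edgeR), the only alternative in which mir-451a was called between regions. mir-144 in swim vHC ran from 80.9 through 92.6 to 136 CPM and in swim dHC from 64.8 through 95.7 to 139.6 CPM. Its log2 fold change was -0.01 (95% confidence interval -0.50 to 0.48, adjusted p = 0.986).

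**Figure D2:**
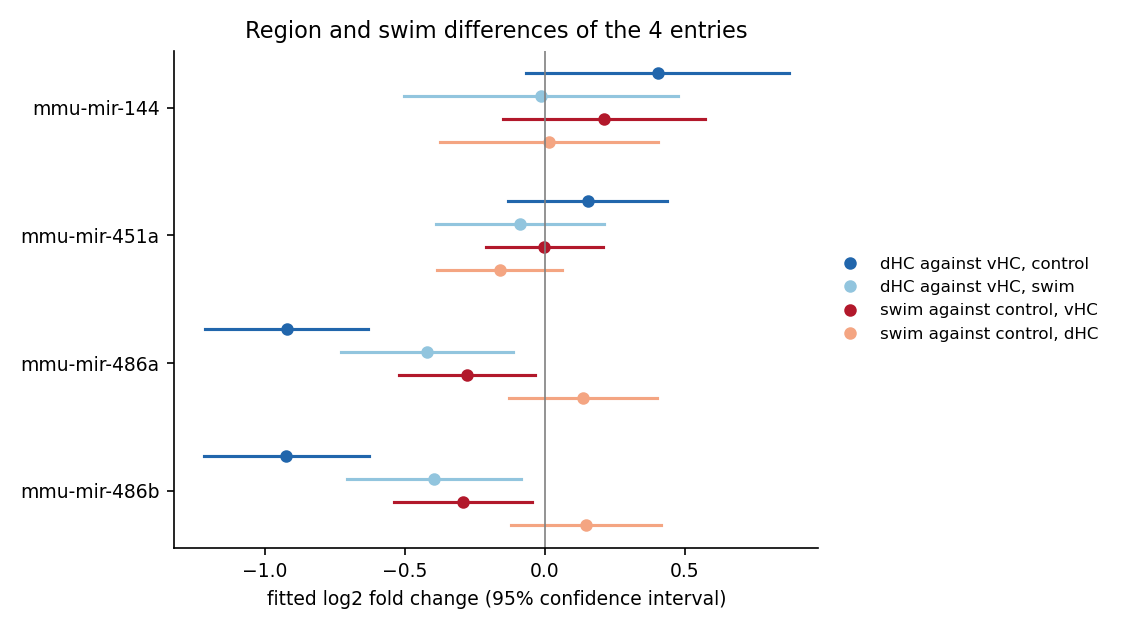
Fitted log2 fold change of each entry (horizontal axis) with its 95% confidence interval, for the region comparisons (block as covariate) and the swim comparisons (surrogate variables as covariates). The control region interval of both mir-486 entries lies wholly below 0, from -1.21 to -0.63 for mir-486a, whereas those of mir-144 and mir-451a include 0.

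The next question was whether the swim changed any of the 4 within 45 min. None passed the test in either region, as was true of all 463 entries (0% called). In vHC the swim mean of mir-486a was 164 against 208 CPM in control, and in dHC it was 126 against 115 CPM. The 6 swim libraries of vHC all lay inside the range of the 8 control libraries, between 145 and 177 CPM.

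In the fit with 2 surrogate variables, the log2 fold change of mir-486a after swim in vHC was -0.28 (95% confidence interval -0.52 to -0.03, unadjusted p = 0.0279, adjusted p = 0.617 by edgeR), when 34 of 463 entries (7.34%) had an unadjusted p under 0.05. In dHC it was 0.14 (95% confidence interval -0.13 to 0.40, adjusted p = 0.982). These values moved with single libraries, to -0.17 in vHC without swim vHC library 27 and to 0.03 in dHC without swim dHC library 22. The interaction, the difference between these effects, was 0.41 (unadjusted p = 0.0256, adjusted p = 0.954 by edgeR), and 4.97% of entries had an unadjusted p under 0.05. Swim and interaction tested together gave an adjusted p of 0.725 for both mir-486 entries (edgeR), the unadjusted p of mir-486b being 0.0421, when 3.46% of entries had one under 0.05. The smaller regional gap of mir-486 after swim was thus not shown to differ from that in control mice.

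For mir-451a, whose swim and control means differed by less than 1 SD in both regions, the log2 fold change was -0.0018 in vHC (95% confidence interval -0.21 to 0.21) and -0.16 in dHC (95% confidence interval -0.39 to 0.06, adjusted p = 0.982 by edgeR). For mir-144 it was 0.21 in vHC (95% confidence interval -0.15 to 0.57, adjusted p = 0.696 by edgeR) and 0.02 in dHC (95% confidence interval -0.37 to 0.41). In dHC 17 of 463 entries (3.67%) had an unadjusted p under 0.05, none of them a member. The first surrogate variable, of which block explained 72.7%, had a Spearman rho with the levels of mir-144 of 0.81, with mir-451a of 0.70 and with mir-486 of -0.59 over the 26 libraries.

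Block differences passed the test for mir-144 and mir-486, in opposite directions, and not for mir-451a. mir-144 averaged 122 ± 38.7 CPM in block 1 (SD, n = 10), 68.4 ± 17.8 in block 2 (SD, n = 8) and 87.6 ± 22.8 in block 3 (SD, n = 8). Of its 6 highest libraries 5 were of block 1, the exception being swim dHC library 28 of block 3. mir-486a averaged 143.7 ± 52.3, 183 ± 57.0 and 149 ± 37.8 CPM in the same order, and its 2 highest libraries were the ventral control ones of block 2.

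Over the 3 blocks together the adjusted p was 0.00204 for mir-144, 0.00972 for mir-486a, 0.0105 for mir-486b and 0.281 for mir-451a (edgeR quasi-likelihood test), where 53.1% of all entries were called. Block 2 against block 1 gave a log2 fold change of -0.87 (SE 0.20, adjusted p = 0.000876) for mir-144 and of 0.46 (SE 0.12, adjusted p = 0.0032) for mir-486a, with 52.5% of entries called. For mir-451a it was -0.20 (SE 0.12, adjusted p = 0.174). Block 3 against block 1 was called for mir-144 alone of the 4 (-0.53, SE 0.20, adjusted p = 0.0327 by edgeR, with 52.1% of entries called). That call was lost when any of 10 libraries was left out, namely control vHC libraries 7, 9 or 13, swim vHC libraries 27 or 29, control dHC libraries 8, 14, 26 or 32, or swim dHC library 30, the adjusted p then reaching 0.0918. No entry at all was called between blocks 3 and 2 at the adjusted threshold, although 51 (11.0%) had an unadjusted p under 0.05, mir-486a and mir-486b among them.

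Since a ratio of counts within a library needs no scaling, mir-486 was next set against mir-451a directly. In control vHC the median library had 1.03 counts of mir-486 for each count of mir-451a (range 0.610 to 1.64), and in control dHC 0.561 (range 0.285 to 0.906). All 6 dorsal libraries lay below 1, the lowest 2 being those of block 1, and 4 of the 8 ventral libraries lay above 1. As the division of reads between mir-486a and mir-486b is not stated, the value 1 has no special meaning. Only differences of this ratio between groups were read. The mean log2 ratio differed by -0.96 in dHC against vHC, which is 1.95-fold lower (two-sided exact permutation test p = 0.0127, adjusted p = 0.101 over 8 ratio tests), so it did not pass the adjusted threshold.

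The control difference of the ratio was negative in every block, at -1.36, -1.20 and -0.64. With labels exchanged within blocks only, the exact permutation p was 0.00926 (adjusted p = 0.0741). Leaving out the shallow control dHC library 24 gave -1.12 (exact permutation p = 0.00466, adjusted p = 0.0373), the one library whose omission brought the ratio past the threshold. The regional difference of mir-486a was slightly smaller and still called in a fit with the level of mir-451a as a covariate, at -0.86 (adjusted p = 3.47e-05, edgeR) against -0.92 without it.

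The other ratio comparisons had smaller differences. For mir-486 to mir-451a the log2 difference between swim regions was -0.33 (exact permutation p = 0.212), with block 2 going the opposite way at 0.47 against -0.66 and -0.80 in blocks 1 and 3. Swim against control gave -0.35 in vHC (exact permutation p = 0.178) and 0.28 in dHC (exact permutation p = 0.422).

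The ratio of mir-144 to mir-451a had no difference past the threshold in any comparison. A library held 3.10 to 11.4 counts of mir-451a per count of mir-144, the group medians lying between 4.09 and 4.88. The highest ratio belonged to control vHC library 1, with 58 counts of mir-144. The log2 ratio of mir-144 to mir-451a differed by 0.23 between control regions (exact permutation p = 0.455) and by 0.05 between swim regions (exact permutation p = 0.781). After swim it differed by 0.34 in vHC (exact permutation p = 0.280) and by 0.15 in dHC (exact permutation p = 0.509).

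**Figure D3:**
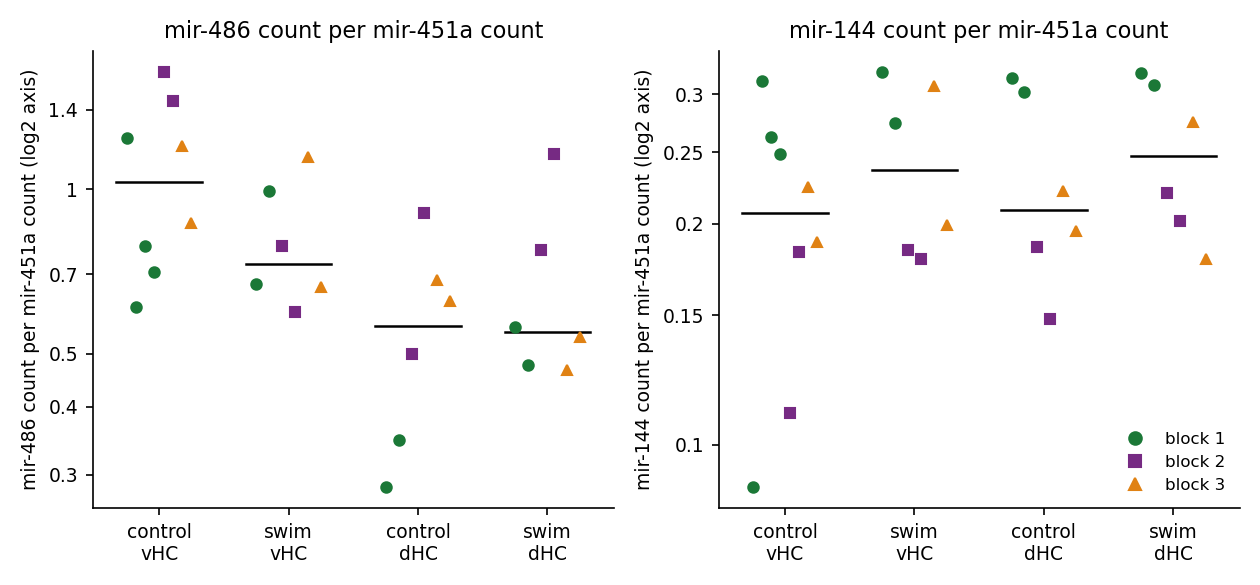
Counts of mir-486 (both entries summed) and of mir-144 per count of mir-451a in each library (vertical axes, log2 scale), by group, with points marked by block and black lines for group medians. The median mir-486 ratio is 1.03 in control vHC and 0.561 in control dHC, while the mir-144 ratio has nearly the same median in those groups (0.207 and 0.209).

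The levels were then followed from library to library. Levels of mir-144 were high where mir-451a was high, whereas those of mir-486 were not. Over the 26 libraries log2 levels of mir-451a and mir-144 had a Pearson r of 0.63 (permutation p = 0.00053, adjusted p = 0.00189 over 7 pairs) and a Spearman rho of 0.65 (permutation p = 0.00055, adjusted p = 0.00385). Without the 2 libraries farthest from the median of mir-451a, control dHC libraries 14 and 8, r was 0.52. It was 0.50 within vHC, 0.81 within dHC, and 0.55, 0.73 and 0.57 within blocks 1, 2 and 3, although rho in block 3 was 0.12.

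For mir-451a and mir-486 the Pearson r was -0.40 (permutation p = 0.0443, adjusted p = 0.0829) and rho was -0.40 (permutation p = 0.0434, adjusted p = 0.101). The relation was negative within both regions (r = -0.43 in vHC and -0.60 in dHC) and in all 3 blocks (-0.28, -0.44 and -0.34). Without control dHC libraries 14 and 8 it fell to -0.21 and so rested partly on them. The positive relation seen for mir-144 was found for mir-486 in none of these groupings.

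mir-144 and mir-486 were related inversely, with r of -0.63 (permutation p = 0.00054, adjusted p = 0.00189) and rho of -0.52 (permutation p = 0.0074, adjusted p = 0.0259). Values were -0.75 within each region and -0.69 and -0.63 in blocks 1 and 2, but -0.05 in block 3. Without control vHC libraries 1 and 17, the farthest from the median of mir-144, r was -0.48. These levels share one denominator per library, and the libraries share blocks.

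No pair of a member with a marker of another cell type passed the adjusted threshold over all 26 libraries, although mir-486 and mir-126a were inversely related within blocks 1 and 2. mir-223, of granulocytes and platelets, had r of 0.29 with mir-451a (permutation p = 0.159, adjusted p = 0.222; rho 0.29, permutation p = 0.147; 0.26 without the 2 farthest libraries) and of 0.04 with mir-486 (permutation p = 0.862; rho 0.04, permutation p = 0.854; 0.24 without 2). With group and block means removed, r was 0.26 for mir-451a and -0.39 for mir-486 with mir-223 (rho 0.26 and -0.53), given with no test. Within regions the former was 0.24 in vHC and 0.39 in dHC, and the latter -0.32 in each. mir-126a, of endothelium, had r of 0.10 with mir-451a (permutation p = 0.624, adjusted p = 0.728; rho 0.04, permutation p = 0.831; 0.15 without 2) and of -0.39 with mir-486 (permutation p = 0.0474, adjusted p = 0.0829; rho -0.37, permutation p = 0.064; -0.44 without 2). With group and block means removed, r was 0.34 for mir-451a and -0.71 for mir-486 with mir-126a (rho 0.41 and -0.60), the latter being the largest in size of the 7 pairs by Pearson r on that scale. Within regions the values for mir-126a were 0.03 and 0.20 with mir-451a and -0.46 and -0.23 with mir-486, for vHC and dHC in turn. Within blocks 1, 2 and 3 they were 0.15, 0.81 and 0.42 with mir-451a and -0.77, -0.67 and 0.01 with mir-486. The values for mir-223 within blocks were 0.12, 0.52 and 0.19 with mir-451a and 0.30, -0.38 and -0.05 with mir-486.

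**Figure D4:**
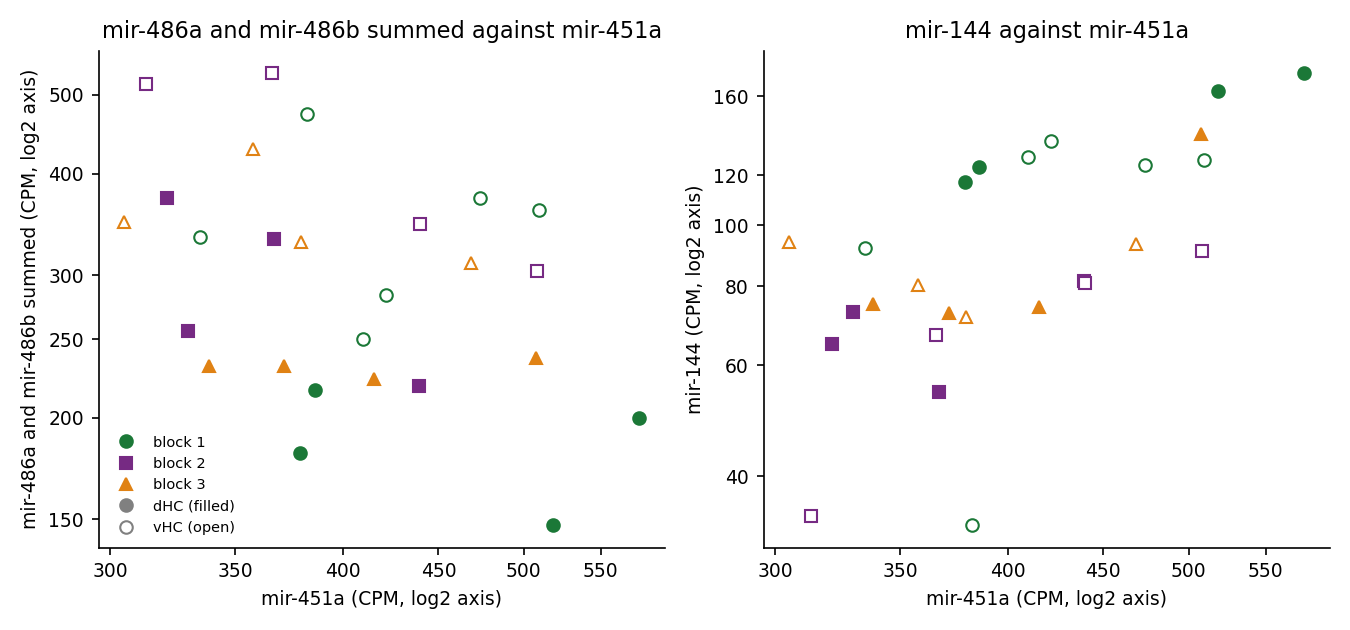
Level of mir-486 (left) and of mir-144 (right) against mir-451a in the 26 libraries, all axes in CPM on a log2 scale, with filled points for dHC, open points for vHC and shapes for blocks. mir-144 rises with mir-451a (r = 0.63), whereas mir-486 does not (r = -0.40), and at a like level of mir-451a most dorsal libraries lie below ventral ones for mir-486.

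The entries most like each member over the 26 libraries were found by Spearman rho. The 5 nearest to mir-451a were all copies of mir-669a (mir-669a-3, mir-669a-1, mir-669a-10, mir-669a-11 and mir-669a-12, rho 0.85 to 0.86), a repeated family whose copies share reads and stood at only 5.48 to 5.88 CPM. Of these 4 held identical values and so are one measurement. None was called between control regions.

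The 5 nearest to mir-486 were mir-433 (rho 0.90), mir-485 (0.89), mir-1981 (0.84), mir-543 (0.84) and mir-383 (0.81). mir-433, mir-485 and mir-543 belong to the imprinted Dlk1-Dio3 locus, a large group of brain miRNAs. All 5 were lower in control dHC. The log2 fold changes were -0.88 for mir-433 (adjusted p = 1.97e-07), -0.83 for mir-485 (adjusted p = 1.58e-05), -0.65 for mir-1981 (adjusted p = 0.000432), -0.69 for mir-543 (adjusted p = 0.00636) and -0.93 for mir-383 (adjusted p = 1.04e-07), all by the edgeR fit. Likeness was measured over libraries of both regions, so a shared regional difference is part of it.

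Other miRNAs that red cells hold were described from a list of 15 entries, all of which other tissues make too. Of the 14 tested, 7 were higher and 1 lower in control dHC, against 7.78% and 14.7% of all 463 entries. Their median log2 fold change was 0.30 against 0.0055 over all entries. Some listed entries are copies or cluster partners of one another, so the 7 are fewer separate measurements than their number. mir-16-1 and mir-16-2, the nearly identical copies of an abundant cell cycle repressor, had 0.66 and 0.65 (adjusted p = 2.06e-05 each, edgeR). The cluster partner of mir-16-1, mir-15a, had 1.07, mir-106b 0.54, mir-22 0.51, mir-93 0.36 and mir-25 0.29. mir-185 was the one that fell, by 0.36 on the log2 scale (adjusted p = 0.0215, edgeR), and the most abundant entry of the list was mir-22 at 4913 CPM.

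After swim 8 of these 14 were higher in dHC and 0 lower, against 7.56% and 12.7% of all entries (median 0.36 against -0.00015 over all entries). The 8 were both mir-16 and both mir-92a entries, mir-15a, mir-25, mir-93 and mir-106b. Both pairs are copies, so the 8 too are fewer separate measurements. The list's summed level ran from 11780 to 19695 CPM in control vHC, 15924 to 29171 in control dHC, 13209 to 21079 in swim vHC and 14513 to 32228 in swim dHC. mir-486 was thus lower in dHC while most of the listed entries that were called were higher there, and mir-451a was called neither way.

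Markers of white cells, microglia and platelets (mir-142a, mir-150, mir-155 and mir-223) had 0 of 4 tested entries called in either region comparison (medians -0.12 in control and -0.05 in swim mice). In control mice mir-142a was just over the threshold and higher in dHC, at 0.49 (adjusted p = 0.0539, edgeR). The other markers lay between -0.17 (mir-155) and -0.11 (mir-150). After swim mir-142a was at 0.12 (adjusted p = 0.726, edgeR). Of all entries 22.5% were called in control and 20.3% in swim mice, so 0 called in a list of 3 or 4 entries is near that share. The 4 markers summed to between 959 and 2793 CPM over the libraries of all groups. Their most abundant entry, mir-150, averaged 1377 CPM. Vessel markers (mir-126a, mir-143 and mir-145a) had 0 of 3 called as well (medians -0.05 and -0.09), at 12829 to 30446 CPM, of which mir-143 held 13774 CPM on average. mir-142b, mir-126b and mir-145b were at 0 to 4.5 counts and were not tested.

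Striated muscle also makes mir-486, and its markers were read beside it. mir-1a-1 and mir-1a-2, near-identical copies of the most abundant muscle miRNA (479 CPM each), were higher in control dHC, at 0.55 each (adjusted p = 0.000432, edgeR), the reverse of mir-486. mir-206 was lower in control dHC at -0.92 (adjusted p = 0.00714, edgeR), at 6.45 CPM on average. In all, 2 of the 6 tested muscle entries were higher and 1 lower (median 0.35), against 7.78% and 14.7% of all entries. The 2 higher entries are one measurement. The median is that of another pair of copies, mir-133a-1 and mir-133a-2, which were not called (0.35 each, adjusted p = 0.120, edgeR). After swim 2 were higher and 0 lower (median 0.33), again both mir-1a entries, against 7.56% and 12.7% of all entries. The list summed to 731 to 1023 CPM in control vHC and 1089.8 to 1331 CPM in control dHC, and to 771 to 1260 and 1127 to 1689 CPM in swim vHC and dHC. The heart-muscle entries mir-208a and mir-208b had at most 5 and 4 counts, and mir-133b at most 13.3.

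Choroid plexus, which lies against the hippocampus and can be caught in dissection, was checked with 10 entries, which went both ways. In control dHC mir-200a, mir-200b, mir-200c, mir-141 and mir-429, the miRNAs of the mir-200 family that mark epithelium, were lower by log2 fold changes from -1.60 (mir-200b) to -0.76 (mir-141). mir-204, mir-211, mir-34b, mir-34c and mir-449a were higher, by 0.55 (mir-204) to 1.03 (mir-34c), and mir-204 was the most abundant at 1678 CPM. After swim the 5 of the mir-200 family were again lower, and mir-34b and mir-449a higher. Over all entries 14.7% were called lower and 7.78% higher in control dHC, and 12.7% and 7.56% after swim. The list's summed level was 2631 to 3716 CPM in control vHC and 3214 to 6263 CPM in control dHC. The part of any of these cell types in the mir-486 difference was not tested. No entry of any of the 6 lists was called for swim in either region.

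**Figure D5:**
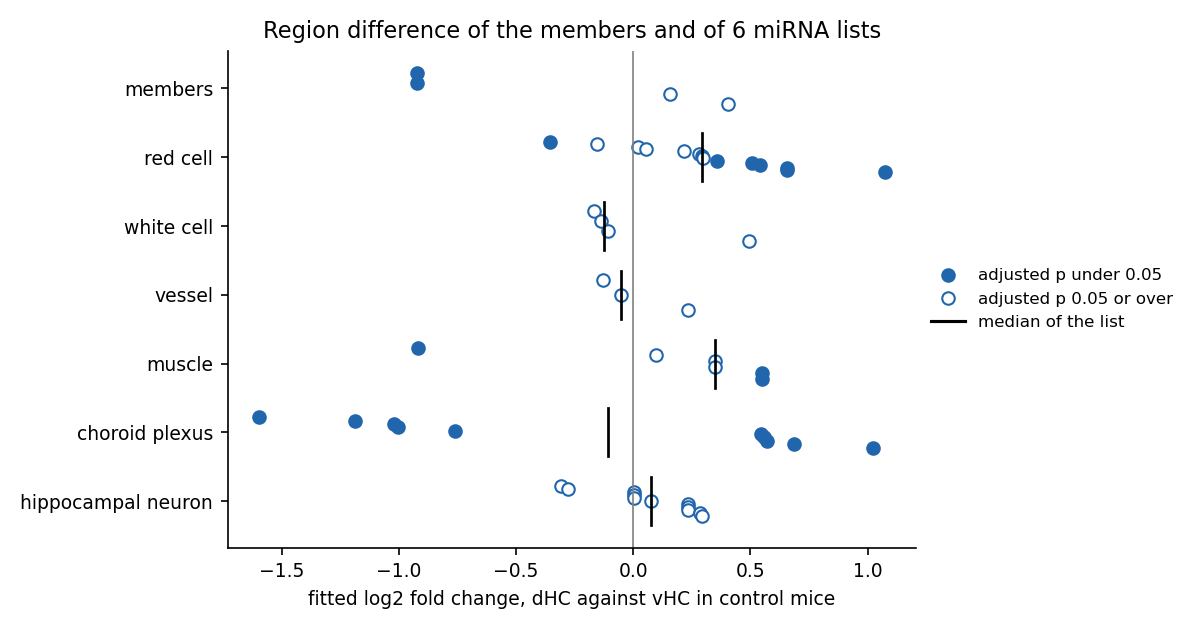
Fitted log2 fold change of dHC against vHC in control mice (horizontal axis) for the 4 members and for each tested entry of 6 miRNA lists, with filled points for an adjusted p under 0.05 and black lines for list medians. Both mir-486 entries stand at -0.92 and mir-451a at 0.15. The median is 0.30 for the red cell list and 0.35 for the muscle list, but each of these lists also holds an entry called lower (mir-185 at -0.36 and mir-206 at -0.92). Several lists hold copies of one miRNA, which are not separate measurements.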

How the data were processed

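Small RNA was measured in 26 hippocampal libraries. The authors trimmed reads with cutadapt, collapsed reads of identical sequence including molecular identifiers, and quantified them with Sports, per the methods, on GRCm38, per the labels. The deposited table holds estimated counts per entry (22.7% of values are not whole), which were rounded here. It holds no separate arm, so a count joins both arms of a hairpin. Counting intervals were not used: errors are between libraries.

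miRNA entries passing filterByExpr (minimum count 10, minimum total 15) were TMM-scaled and tested with edgeR 4.0.16 (quasi-likelihood F test, all 4 groups in one fit, R 4.3.3), with Benjamini-Hochberg adjustment over 463 entries and a threshold of 0.05. Region and block tests had block, region, stress and their interaction as terms. Stress tests had 2 surrogate variables (sva 3.50.0) in place of block, after the study's methods, and region tests did not, because region explained 91.1% of the second one. Ratios were log2 of count + 0.5, with exact permutation over libraries. Correlations used 100000 permutations of log2 CPM with a prior count of 0.5. The fits were also run on simulated counts that held no block differences, which cannot judge the choice between block and surrogate variables.

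Named genes were the 4 members, the 5 entries most like mir-451a and the 5 most like mir-486, and, from each list, entries called and the most abundant one. The members and lists were chosen with earlier results of these data known. Alternatives were other scaling, no filter, DESeq2 1.42.0, summed mir-486 entries, other covariates and leaving out each library. The total miRNA count as a covariate, and surrogate variables with an intercept alone as the null model, were added after seeing the data.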

Additional observations from a re-analysis of the deposited data

Results flagged for a closer look

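Among 28 sets of values checked for a lone extreme library (4 entries, the summed mir-486 level and 2 ratios in 4 groups), 1 was found, where chance gives about 1 in 20. mir-144 in swim vHC library 5, of block 1, stood at 136 CPM, while the other 5 libraries of its group lay between 80.9 and 94.0 CPM.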

How the results depend on the processing

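The lower level of mir-486a in control dHC kept its direction and call in 36 of 37 alternatives, all 26 with a library left out among them (adjusted p from 1.50e-05 to 0.00033). The exception put the surrogate variables in place of block, which gave -0.37 (adjusted p = 0.514), and 0 members were then called between control regions. Under that setting mir-144 and mir-451a turned to -0.54 and -0.79 between control regions, and mir-486a and mir-486b to 0.044 and 0.062 between swim regions. mir-451a was then called between swim regions, at -0.95 (adjusted p = 0.0348). The second surrogate variable follows region. With the mir-486 entries summed, 1 entry was called in control mice and 0 after swim. The swim call of mir-486a was lost (0 members called) under DESeq2 size factors, TMMwsp, no filter on low counts, DESeq2 and no covariates, and 2 were called with the total miRNA count as covariate. With a library left out, 0 to 2 were called.

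Values near 0 changed sign. mir-144 between swim regions was 0.017 with no covariates, 0.056 with mir-451a as covariate, and -0.19 to 0.063 with a library left out. mir-451a between swim regions ranged from -0.20 to 0.0029 with a library left out. For swim in vHC mir-451a was 0.030 (DESeq2 size factors and DESeq2), 0.049 (TMMwsp), 0.050 (no covariates), 0.064 (no filter), 0.097 (block) and -0.065 to 0.11 with a library left out. For swim in dHC mir-144 was -0.024 (DESeq2 size factors), -0.025 (DESeq2), -0.021 (block), -0.0090 (TMMwsp), -0.091 (no covariates) and -0.099 to 0.076 with a library left out. The mir-486 to mir-451a ratio for swim in dHC was -0.023 as a difference of medians, and for control regions it ranged from -1.12 to -0.79 with a library left out. The mir-144 to mir-451a ratio between swim regions ranged from -0.035 to 0.14 with a library left out. The causes were not tested. The few counts of library 24 limit what it adds.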
